A study of Mus musculus with 16 samples.

Results

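The protein kinase and phosphatase genes described here are mouse genes, as annotated by RefSeq on GRCm38.p6 (mm10), whose symbols begin with Mapk, Map2k, Map3k, Map4k, Cdk and a digit (other than Cdk6), Camk, Csnk, Prka, Stk, Pik3, Ppp, Dusp or Ptpn, and whose span holds at least 1 region with KIN-CLIP coverage of the RNA-binding protein Dazl. Of 295 genes with such symbols, 69 had a region, and 63 of these had a region that could be given to that gene. The other 6 had only regions that also lie in another gene. The 63 genes are 63 of the 3203 genes with a region in the whole data set, and they hold 161 of its 8338 regions.

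KIN-CLIP is an individual-nucleotide crosslinking and immunoprecipitation method in which a pulsed ultraviolet laser links a protein to the RNA it touches for a set time. All libraries came from GC-1 spg, an immortalized mouse line of spermatogonial origin, of which 1 clone carries Dazl that is induced with doxycycline, so every group shares the clone and the transgene. Per the labels the protocol names the induction but no dose for either Dazl level, and RNA was taken from crosslinked Dazl complexes cut out after a gel. The 2 laser powers (2.6 and 1 mW), the 2 Dazl levels (4.2x and 1x) and crosslinking times of 30, 180 and 680 s were combined. Each of the 12 combinations had 1 library and there were no replicates. Samples without crosslinking (0 s, 4 in number) were not analysed here, and the values below therefore stand without a background. The value used for a region is the sum over its positions of a score that the submitters call normalized coverage, and the value of a gene is the sum over its regions. It is called coverage below and has no unit beyond that score. Because each library was made from the lysate of many cells, more copies of an RNA, more Dazl on each copy and more crosslinks per contact cannot be told apart.

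Protein kinases transfer phosphate to proteins and phosphatases remove it. Mitogen-activated protein kinases (MAPK) act in cascades, where a Map3k activates a Map2k and that kinase activates a Mapk. A Map4k can act above the Map3k, and dual specificity phosphatases (Dusp) switch the last step off. Serine/threonine phosphatases of the Ppp family pair a few catalytic subunits with many regulatory subunits that set the target. Dazl is a germ cell protein with an RNA recognition motif, known to bind GUU-containing sequence, mostly in 3′ untranslated regions, and to regulate translation and stability of the bound messenger RNA in germ cells.

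Library totals of coverage ran from 11271 to 252932, and the 63 genes held between 1.84% and 2.15% of them. Values of the 3 times of 1 combination may be linked in the deposited files, and many ties were seen in 1 of the 4 combinations. At 2.6 mW and 4.2x Dazl, 0 of the 161 regions were lower at 680 s than at 30 s, and 63 of the 153 with at least 10 at 680 s (41.2%) had the identical value at both times, against 45.4% over all regions. At 2.6 mW and 1x, 1 mW and 4.2x, and 1 mW and 1x, 10, 10 and 1 regions were lower at 680 s. Of those with at least 10 there, 0%, 4.83% and 0% were tied. At 1 mW and 1x Dazl, 70.2% of the 161 regions stood at 1, the lowest value, after 30 s and 79.5% after 180 s, against 3.73% after 680 s. Over all regions the shares were 74.0%, 80.5% and 7.99%. All p-values below take the libraries as independent. They also borrow variance across genes, with a median of 107.09 borrowed against 7 residual degrees of freedom on values as deposited. All genes share the same libraries, so the borrowed ones are not independent. Of the cell type markers checked, 1 of 15 germ cell genes had a region (Sall4, mean coverage 1.67), as did 2 of 6 Sertoli cell genes (Wt1 and Dhh, 12.83 and 12.33), 1 of 3 peritubular genes (Acta2, 15.67), 1 of 3 endothelial genes (Kdr, 4.33), 0 of 5 Leydig cell genes and 0 of 3 macrophage genes. Dazl itself had none. A gene without a listed region is not shown to be unbound.

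Only 2 members had a region inside the stretch from 250 bases before to 50 bases after a RefSeq transcript start, where a sequence was at hand. The serine/threonine kinase gene Stk11, whose product Lkb1 activates the AMP-activated kinase, had its single region there (chr10:80115770-80115786), and it had the highest coverage per listed nucleotide of the 63. Cdk15, a little-studied member of the cyclin-dependent kinase family, had both of its regions there (chr1:59256850-59256866 and chr1:59256910-59256925). The windows are from RefSeq, build GRCm38.p6, on the plus strand at chr10:80115545-80115844 and chr1:59256656-59256955, and they are printed because they hold the only regions of these genes that can be read as letters. Capitals mark the regions.
Stk11: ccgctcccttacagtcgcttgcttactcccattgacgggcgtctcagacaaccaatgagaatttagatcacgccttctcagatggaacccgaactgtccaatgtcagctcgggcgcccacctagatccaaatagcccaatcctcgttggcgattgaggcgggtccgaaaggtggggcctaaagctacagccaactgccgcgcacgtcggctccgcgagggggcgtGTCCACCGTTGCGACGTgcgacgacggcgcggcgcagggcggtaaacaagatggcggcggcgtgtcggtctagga
Cdk15: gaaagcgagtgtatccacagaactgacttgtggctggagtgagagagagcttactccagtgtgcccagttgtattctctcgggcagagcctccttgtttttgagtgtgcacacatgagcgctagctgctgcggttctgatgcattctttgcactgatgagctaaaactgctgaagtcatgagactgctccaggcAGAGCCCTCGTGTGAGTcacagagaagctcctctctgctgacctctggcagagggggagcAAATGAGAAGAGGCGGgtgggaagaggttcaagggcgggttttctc

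The Stk11 region lies at bases -25 to -9 from the start that this window uses, and just inside the gene span, which begins at 80115767. It holds 1 GTT on the gene strand and 0 AAC, the same motif on the other strand. The Cdk15 regions lie at -56 to -40 and 4 to 19 and hold 0 GTT and 0 AAC. For comparison, 47 of 134 listed regions of 15 to 17 nt inside such windows (35.1%) hold GTT on the gene strand, and so do 94.4% of all 32851 windows of 300 bases. The Stk11 window is 61.3% G and C and the Cdk15 window 53.7%, against a median of 52.7% over the table. A match of 3 letters is a description and not a binding site.

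Stk11 had 53, 52 and 53 after 30, 180 and 680 s at 2.6 mW and 4.2x Dazl, 55, 41 and 48 at 2.6 mW and 1x, 15, 22 and 31 at 1 mW and 4.2x, and 2, 1 and 21 at 1 mW and 1x. The 2.6 mW libraries lay between 41 and 55 at all times, while those of 1 mW were highest at 680 s at both Dazl levels. Cdk15 had 5, 9 and 19, then 8, 5 and 17, then 4, 3 and 11, then 2, 2 and 6, in the same order of combinations, and was highest at 680 s in each. Per listed nucleotide the mean over 12 libraries was 1.931 for Stk11, rank 1 of the 63, and 0.230 for Cdk15, rank 58.

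**Figure D1:**
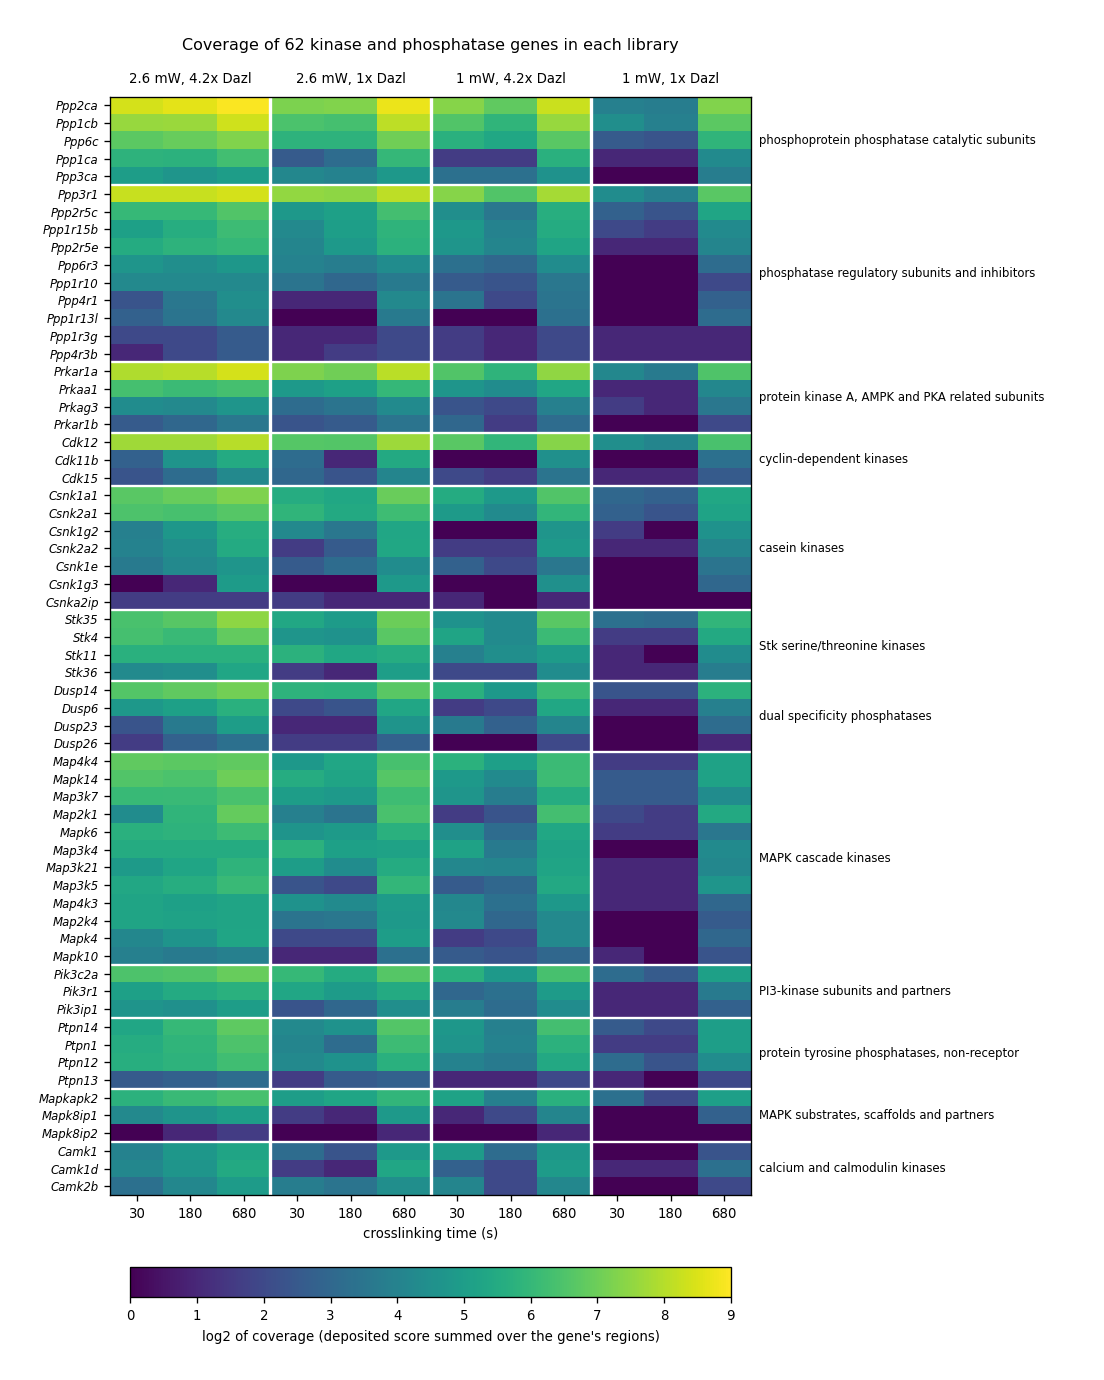
Coverage of 62 of the 63 genes (rows, grouped by role) in each of the 12 libraries (columns, by laser power, Dazl level and time in s), as log2 of the summed score. Ppp2ca, Ppp3r1 and Prkar1a are the brightest rows, and the 30 s and 180 s columns of 1 mW and 1x Dazl are dark for nearly all genes.

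Coverage was concentrated in a few phosphatase subunits and kinases. The 5 highest of the 63 genes held 35.3% of the coverage of all 63, and the 10 highest held 49.5%. The median mean coverage was 26.2 for the 63 genes and 16.3 over all 3203 genes, and per listed nucleotide 0.671 and 0.632. A single region was listed for 25 of the 63 genes (39.7%), against 49.2% of all genes, and 135 of the 161 regions (83.9%) were exactly 17 nt long, against 81.5%.

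Ppp2ca, the catalytic subunit of protein phosphatase 2A, was the highest member in 8 of the 12 libraries. It had 343, 394 and 498 after 30, 180 and 680 s at 2.6 mW and 4.2x Dazl, 149, 156 and 424 at 2.6 mW and 1x, 165, 111 and 309 at 1 mW and 4.2x, and 15, 14 and 157 at 1 mW and 1x. In every combination the 680 s library was the highest. Most of this came from 1 region of 112 nt, the longest of the 161, at chr11:52122483-52122594 and centred 211 nt from the 3′ end of the gene. That region had a mean of 169.17 out of 227.92 for the gene.

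Ppp3r1, the regulatory B subunit of the calcium-activated phosphatase calcineurin, had a mean of 183.92 in 6 regions. Its values were 305, 304 and 341 at 2.6 mW and 4.2x Dazl, 187, 176 and 273 at 2.6 mW and 1x, 163, 95 and 222 at 1 mW and 4.2x, and 21, 15 and 105 at 1 mW and 1x. At 2.6 mW and 1x Dazl it was the highest member at 30 s and at 180 s. The 4 regions nearest to its 3′ end lay 65 to 210 nt from it and had means of 33.25, 52.92, 60.83 and 14.17.

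Prkar1a, a regulatory subunit of the cyclic AMP-dependent protein kinase A, had the most regions of any member, 12, all of 17 nt and between 494 and 2038 nt from its 3′ end. The means of these regions lay between 7.58 and 18.75, so no single one led. Its gene values were 245, 262 and 344 at 2.6 mW and 4.2x Dazl, 152, 132 and 270 at 2.6 mW and 1x, 95, 58 and 183 at 1 mW and 4.2x, and 18, 13 and 91 at 1 mW and 1x.

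Ppp1cb, a catalytic subunit of protein phosphatase 1, had a mean of 137.75 in 8 regions, and Cdk12, the kinase that phosphorylates the tail of RNA polymerase II during elongation, had 128.50 in 8 regions. Ppp1cb had 195, 198 and 324 at 2.6 mW and 4.2x Dazl, 87, 82 and 276 at 2.6 mW and 1x, 94, 59 and 195 at 1 mW and 4.2x, and 22, 15 and 106 at 1 mW and 1x. Cdk12 had 211, 211 and 262, then 100, 96 and 206, then 104, 61 and 166, then 22, 17 and 86 in the same order. The Cdk12 regions formed 2 groups on chromosome 11, between 98251135 and 98251255 and between 98253296 and 98253539, about 27570 to 29953 nt before the end of the gene span.

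Next by mean were Ppp6c, the catalytic subunit of protein phosphatase 6, with 74.58, the casein kinase 1 gene Csnk1a1 with 67.75, the nuclear kinase gene Stk35 with 65.83 and Dusp14 with 64.83. Pik3c2a, a class II phosphoinositide 3-kinase, had 60.67, but all 4 of its regions also lie in the gene model Gm10589 and cannot be told apart from it without strand. Map4k4, an activator of stress kinase cascades, had 57.00, Mapk14, which encodes the stress kinase p38 alpha, 55.17, the casein kinase 2 subunit Csnk2a1 50.75, and Stk4, the Hippo pathway kinase also called Mst1, 49.75. At the other end Mapk8ip2, a scaffold of the Jnk kinase cascade, had 1.42 and Csnka2ip 2.00. Differences in mean coverage between genes mix the number and length of listed regions with the score per nucleotide.

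Per listed nucleotide the order changed. After Stk11 came Map3k4, a stress-activated kinase at the top of a MAPK cascade, with 1.833, Ppp3r1 with 1.437, Ppp2ca with 1.398, Map3k21 with 1.342 and Prkaa1, the alpha 1 subunit of the AMP-activated kinase, with 1.152. Prkar1a, which ranked 3 by coverage, had 0.761 and rank 22. Csnk1g2 had 1.069 and its paralogs Csnk1e, Csnk1a1 and Csnk1g3 had 0.637, 0.565 and 0.490. Csnk2a1 had 0.746 against 0.463 for Csnk2a2, and Ppp1ca had 0.855 against 0.757 for Ppp1cb.

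Paralogs within a family were listed unequally. Of 11 catalytic subunit genes of the Ppp phosphatases 5 had an assigned region (Ppp1ca, Ppp1cb, Ppp2ca, Ppp3ca and Ppp6c), and of 77 other Ppp genes, most of which encode regulatory subunits and inhibitors, 10 had one. Casein kinases had 7 of 13, MAPK cascade kinases 13 of 43, protein kinase A and AMP-activated kinase genes 4 of 15, non-receptor tyrosine phosphatases 4 of 17, calcium and calmodulin kinases 3 of 14, phosphoinositide 3-kinase genes 3 of 16, dual specificity phosphatases 4 of 24, Stk kinases 4 of 27, MAPK substrates and scaffolds 3 of 12 and cyclin-dependent kinases 3 of 26. Groups were taken by symbol, so that of the casein kinases includes Csnka2ip, the gene of an interacting protein and not of a kinase. That of the phosphoinositide 3-kinase genes holds subunits and partners, with Pik3ip1, the gene of an interacting protein, among them. None of the catalytic subunits of protein kinase A had an assigned region, while the regulatory subunits Prkar1a and Prkar1b did. Ppp1ca and Ppp1cb encode near-identical proteins, and the placing of reads that match several genes is not described.

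The 6 genes seen only in shared regions were Map3k12, with 4 regions in the poly(C)-binding protein gene Pcbp2 and a summed mean of 305.16, Map3k15 with Pdha1 (20.58), Csnk1d with Slc16a3 (17.25), Ppp3r2 with Grin3a (16.92), Cdk17 with Elk3 (15.08) and Cdk2 with Pmel (12.17). One more Ppp1ca region, with a mean of 18.50, also lies in Rad9a and was left out of its value. Without strand these sums cannot be given to either gene of a pair, and they entered no count.

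**Figure D2:**
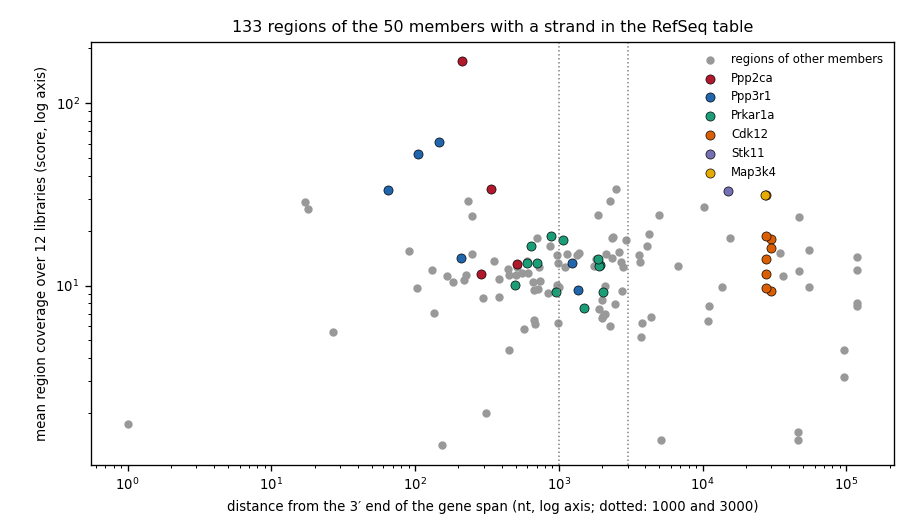
Mean coverage over 12 libraries (vertical, log axis) against the distance of the region's centre from the 3′ end of the gene span in nt (horizontal, log axis) for the 133 regions of the 50 members with a known strand. The regions of Ppp2ca and Ppp3r1 with the highest values lie within 1000 nt of the end, those of Cdk12 lie 27570 to 29953 nt from it.

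The strand was known for 50 of the 63 genes, which held 133 regions. The median distance from a region's centre to the 3′ end of the gene span was 1379 nt, against 1686 nt for 6082 regions of 2503 other genes. Within 1000 nt lay 59 of the 133 regions (44.4%), against 36.9% in the other genes, and within 3000 nt lay 94 (70.7%), against 63.5%. Within 300 nt of the 5′ end lay 3 of the 133 (2.26%), the Stk11 region and both Cdk15 regions, against 3.57% in the other genes. A region of Pik3r1, the p85 alpha regulatory subunit of phosphoinositide 3-kinase, and one of Dusp14 lay 18 and 17 nt from the 3′ end, and regions of Map3k5 and Camk1d lay 118190 to 118987 nt from it. These distances use gene spans only, since exons were not annotated here. Regions of 1 gene share its length and are not independent.

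How coverage of these messenger RNAs depends on the amount of Dazl is asked by setting 4.2x against 1x. At 4.2x, coverage was higher for 56 of the 63 genes (88.9%) and lower for 0, where 82.4% of all genes were higher (limma on log2(coverage + 3), with time, laser power and Dazl as additive factors, Benjamini-Hochberg adjusted p under 0.05 over 3203 genes). The share was thus near that of all genes. The median log2 change was 1.04 (2.06-fold) for the 63 genes and 0.88 over all genes. Among genes with a mean of at least 10 the medians were closer, 1.12 for 50 members and 1.05 for 2204 genes. Since 3 is added before the logarithm, changes of low genes are understated.

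Summed over the 63 genes, coverage was 5.84-fold higher at 4.2x Dazl in the 30 s pair of 1 mW libraries, 4.58-fold in the 180 s pair and 1.95-fold in the 680 s pair. At 2.6 mW the ratios were 1.95, 2.31 and 1.24. The ratios of the library totals were 5.00, 4.29 and 1.93 at 1 mW and 1.89, 2.16 and 1.24 at 2.6 mW, so the 63 genes followed their libraries. At 680 s and 2.6 mW all 63 genes were higher at 4.2x Dazl, as were 99.2% of all genes, and the lowest listed value was 3 at 4.2x and 2 at 1x.

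The MAPK cascade kinases were higher in 13 of 13, with a median change of 1.09 and a range of 0.67 to 1.75. Map4k4 had the largest change of the 63, 1.75 ± 0.33 (SE, adjusted p = 2.21e-05), with 113, 106 and 113 at 2.6 mW and 4.2x Dazl against 28, 40 and 83 at 2.6 mW and 1x, and 54, 34 and 71 at 1 mW and 4.2x against 3, 3 and 36 at 1 mW and 1x. All 6 libraries of 4.2x were above their partner of 1x, where 72.4% to 99.2% of all genes were higher in single pairs. Map2k4, which activates Jnk and p38, changed by 1.42 ± 0.28 (adjusted p = 3.81e-05), also in 6 of 6 pairs. Its single region had 38, 36 and 38 at 2.6 mW and 4.2x Dazl against 11, 12 and 29 at 2.6 mW and 1x, and 19, 8 and 19 at 1 mW and 4.2x against 1, 1 and 6 at 1 mW and 1x.

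Calcium and calmodulin kinases were higher in 3 of 3. Camk1, activated by calmodulin and an upstream kinase, changed by 1.58 ± 0.29 (adjusted p = 9.56e-06). It had 16, 27 and 38 at 2.6 mW and 4.2x Dazl against 9, 5 and 29 at 2.6 mW and 1x, and 31, 9 and 27 at 1 mW and 4.2x against 1, 1 and 5 at 1 mW and 1x. Its 4.2x libraries were higher in 6 of 6 pairs, although the 1 mW library of 30 s exceeded that of 680 s at 4.2x.

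All 5 phosphatase catalytic subunits were higher, with changes from 0.93 for Ppp3ca, the catalytic subunit of calcineurin, to 1.61 ± 0.39 for Ppp2ca (adjusted p = 0.000401). Regulatory subunits were higher in 9 of 10, with Ppp3r1 at 1.35 ± 0.38 (adjusted p = 0.00171) and Ppp2r5e, a targeting subunit of protein phosphatase 2A, at 1.33 ± 0.30 (adjusted p = 0.000217). The dual specificity phosphatases were higher in 4 of 4, the Stk kinases in 4 of 4, the phosphoinositide 3-kinase genes in 3 of 3, the MAPK substrates and scaffolds in 3 of 3, the tyrosine phosphatases in 3 of 4 and the protein kinase A and AMP-activated kinase genes in 3 of 4.

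Genes of the casein kinase group were higher in 5 of 7, with Csnka2ip among the 5, and cyclin-dependent kinases in 1 of 3, Cdk12 (1.20 ± 0.36, adjusted p = 0.00273). The 7 genes that did not pass were Csnk1g2, Csnk1g3, Cdk15, Cdk11b, Ptpn13, Ppp4r3b and Prkag3. Csnk1g2, a membrane-associated casein kinase 1, had a change of 0.08 ± 0.28 (adjusted p = 0.771). It had 15, 27 and 49 at 2.6 mW and 4.2x Dazl against 19, 12 and 40 at 2.6 mW and 1x, and 1, 1 and 26 at 1 mW and 4.2x against 3, 1 and 24 at 1 mW and 1x. The Csnk1g2 values of both Dazl levels overlapped, with 4.2x above 1x in 3 of 6 pairs.

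Of the 56 calls, 46 held on leaving out any single library, and the other 10 were Csnk1e, Csnk2a2, Csnka2ip, Dusp26, Map2k1, Mapk8ip2, Pik3r1, Ppp2r5c, Prkar1b and Stk11. Map2k1 kept its call in 6 of the 12 refits, with 0.37 ± 0.32 (adjusted p = 0.268) on leaving out 180 s at 2.6 mW and 4.2x. Stk11 changed by 0.90 ± 0.32 (adjusted p = 0.0102), and by 0.60 ± 0.32 (adjusted p = 0.0817) on leaving out 180 s at 1 mW and 1x. In 4 members, Csnka2ip, Mapk8ip2, Ppp1r3g and Ppp4r3b, every region stood at the lowest listed value in 3 libraries of 680 s. They supply 3 of the 56 calls here, and below 3 of the 61 calls with laser power and 2 of the 51 with time.

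**Figure D3:**
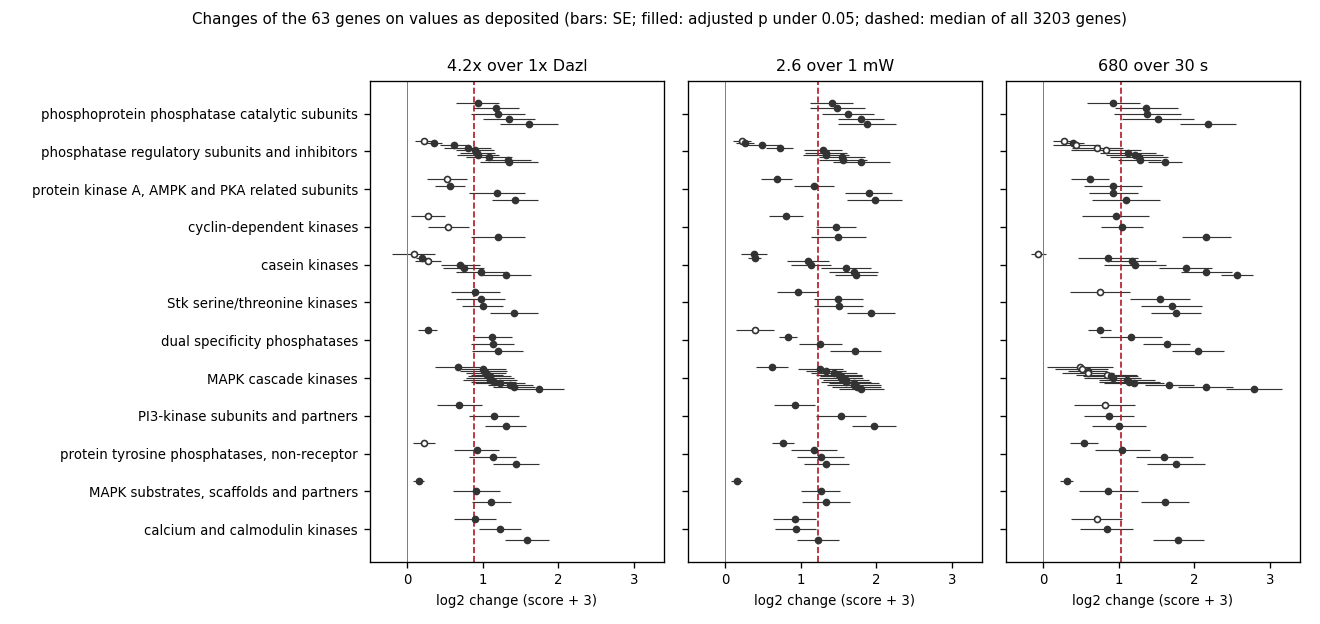
Log2 changes of the 63 genes by role, for 4.2x over 1x Dazl, 2.6 over 1 mW and 680 over 30 s, with standard errors. Filled points passed an adjusted p of 0.05, open points did not, and the dashed lines are the medians of all 3203 genes, at 0.88, 1.22 and 1.03.

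Dividing each library by a size factor asks which genes changed more or less than the typical gene. It moved the median change of all genes with Dazl level to -0.06. Then 0 of the 63 genes departed from the median (limma, adjusted p under 0.05), as did 0% of all genes, with 10 of the 63 (15.9%) and 18.0% of all genes at an unadjusted p under 0.05. Ordered by the moderated t among members with a mean of at least 10, the 5 most positive departures were those of Map4k4 (0.75 ± 0.21, adjusted p = 0.19), Camk1 (0.84 ± 0.28, 0.228), Map2k4 (0.65 ± 0.22, 0.228), Ppp2ca (0.42 ± 0.16, 0.253) and Prkaa1 (0.51 ± 0.21, 0.253). In the same order the 5 most negative were Csnk1g2 (-0.84 ± 0.28, 0.229), Ppp2r5c (-0.30 ± 0.16, 0.28), Prkag3 (-0.40 ± 0.21, 0.285), Map2k1 (-0.37 ± 0.27, 0.409) and Stk35 (-0.19 ± 0.17, 0.503). Centring log2 values on the library median in place of size factors gave 7 members past the threshold, Map4k4 upward and Csnk1g2, Csnka2ip, Dusp26, Mapk8ip2, Ppp4r3b and Ptpn13 downward, where 3.06% of all genes departed upward and 15.1% downward.

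The comparison of 2.6 with 1 mW asks how coverage responded to light. It was higher at 2.6 mW for 61 of the 63 genes (96.8%) and lower for 0, where 93.4% of all genes were higher, so the share again lay near the background. The median log2 change was 1.34 (2.53-fold) for the 63 genes and 1.22 over all genes, or 1.50 and 1.48 among genes with a mean of at least 10. The summed coverage of the 63 genes was 2.20-fold, 3.85-fold and 1.64-fold higher at 2.6 mW after 30, 180 and 680 s at 4.2x Dazl, and 6.61-fold, 7.63-fold and 2.58-fold higher at 1x. At 680 s all 63 were higher at 2.6 mW at both Dazl levels, as were 100.0% of all genes at 4.2x and 97.8% at 1x. The lowest listed value at 680 s was 3 at 2.6 mW and 2 at 1 mW with 4.2x Dazl, and 2 at 2.6 mW and 1 at 1 mW with 1x.

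All members passed in each role except the dual specificity phosphatases (3 of 4) and the regulatory subunits of phosphatases (9 of 10). Among the regulatory subunits of kinases, Prkar1a changed by 1.98 ± 0.37 (adjusted p = 2.15e-06) and Pik3r1 by 1.97 ± 0.30 (adjusted p = 4.27e-08), each in 6 of 6 pairs. In single pairs 80.4% to 100.0% of all genes were higher at 2.6 mW. Pik3r1 had 35, 45 and 52 at 2.6 mW and 4.2x Dazl against 8, 10 and 31 at 1 mW and 4.2x, and 40, 31 and 45 at 2.6 mW and 1x against 2, 2 and 13 at 1 mW and 1x. The lowest 2.6 mW value of Pik3r1, 31, equalled the highest 1 mW value.

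Stk11 changed by 1.93 ± 0.32 (adjusted p = 6.03e-07) and Prkaa1, a subunit of the kinase that Stk11 activates, by 1.90 ± 0.31 (adjusted p = 2.17e-07). Prkaa1 had 82, 70 and 82 at 2.6 mW and 4.2x Dazl against 26, 21 and 40 at 1 mW and 4.2x, and 29, 35 and 63 at 2.6 mW and 1x against 2, 2 and 18 at 1 mW and 1x. Both genes were higher at 2.6 mW in 6 of 6 pairs. Csnk1g2, which did not pass for Dazl level, changed by 1.73 ± 0.28 with laser power (adjusted p = 2.12e-07).

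Dusp23, with a mean of 10.58, was 1 of the 2 genes that did not pass (0.39 ± 0.26, adjusted p = 0.136). This small dual specificity phosphatase had 5, 13 and 32 at 2.6 mW and 4.2x Dazl against 13, 7 and 17 at 1 mW and 4.2x, and 2, 2 and 25 at 2.6 mW and 1x against 1, 1 and 9 at 1 mW and 1x. The other was Ppp4r3b (0.22 ± 0.12, adjusted p = 0.0601), with 2 to 6 over all libraries. Leaving out single libraries changed the call of 4 of the 61 genes, Csnk1g3, Mapk8ip2, Ppp1r3g and Ppp4r1.

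After scaling, where the median change of all genes was -0.01, 0 of the 63 genes departed from the median with laser power (limma), as did 0% of all genes, with 10 of the 63 (15.9%) and 29.2% of all genes at an unadjusted p under 0.05. By the moderated t among members with a mean of at least 10, Pik3r1 (0.69 ± 0.22), Prkar1a (0.35 ± 0.12), Prkaa1 (0.57 ± 0.21), Mapk6 (0.43 ± 0.18) and Stk11 (0.69 ± 0.32) ranked highest, with adjusted p from 0.121 to 0.152. Dusp23 (-0.64 ± 0.25), Pik3ip1 (-0.32 ± 0.21), Ppp1cb (-0.15 ± 0.11), Cdk12 (-0.14 ± 0.11) and Ptpn14 (-0.20 ± 0.16) ranked lowest, with adjusted p from 0.123 to 0.403, and the last 3 of these 5 were positive when values were centred on the library median instead. That centring gave 13 members past the threshold, 5 upward and 8 downward, where 10.8% and 22.9% of all genes did. Without the longest exposure at 2.6 mW and 4.2x Dazl (680 s), 3 members departed, all downward (Mapk8ip2, Ppp1r3g and Ppp4r3b, all at the lowest listed value in 3 libraries of 680 s), where 3.65% of all genes departed upward and 10.5% downward.

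Whether the Dazl effect differed between laser powers was tested with an interaction term. It passed for 0 of the 63 genes (limma, 11 at an unadjusted p under 0.05), against 0.0312% of all genes, a single gene with a negative term. The median term was -0.46 for the 63 genes and -0.26 over all genes. A negative term is a smaller fold change with Dazl at 2.6 than at 1 mW. Both medians depended on the early exposures of 1 mW and 1x Dazl, where most regions stand at the lowest value. With these exposures left out, the medians were 0.035 for the 63 genes and 0.041 over all genes. With all libraries kept, the most negative term was that of Map3k4 (-1.84 ± 0.56, adjusted p = 0.14). It had 47, 47 and 47 at 2.6 mW and 4.2x Dazl against 55, 35 and 36 at 2.6 mW and 1x. At 1 mW it had 36, 13 and 36 at 4.2x against 1, 1 and 20 at 1x. The count rested on single libraries of 680 s: it was 22 without that of 1 mW and 1x (21 negative, where 25.0% of all genes were) and 2 without either library of 2.6 mW. Without the 2.6 mW library of 1x, the term passed as positive in 1.5% and as negative in 0.187% of all genes. Without that of 4.2x the shares were 1.28% and 0.0624%.

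How coverage built up during crosslinking is asked by setting 680 against 30 s. Coverage was higher at 680 s for 51 of the 63 genes (81.0%) and lower for 0, where 73% of all genes were higher. The median log2 change was 1.10 (2.14-fold) for the 63 genes and 1.03 over all genes, and 1.15 and 1.11 among genes with a mean of at least 10. Summed over the 63 genes, coverage at 30, 180 and 680 s was 3539, 3875 and 5230 at 2.6 mW and 4.2x Dazl, 1819, 1679 and 4229 at 2.6 mW and 1x, 1606, 1007 and 3192 at 1 mW and 4.2x, and 275, 220 and 1640 at 1 mW and 1x. In 3 of the 4 combinations the 180 s library was therefore below the 30 s library, as the library totals also were.

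Genes of the casein kinase group were higher at 680 s in 6 of 7 (all but Csnka2ip), cyclin-dependent kinases in 3 of 3, dual specificity phosphatases in 4 of 4, phosphatase catalytic subunits in 5 of 5 and tyrosine phosphatases in 4 of 4. Phosphatase regulatory subunits were higher in 6 of 10, MAPK cascade kinases in 9 of 13, Stk kinases in 3 of 4, phosphoinositide 3-kinase genes in 2 of 3, calcium and calmodulin kinases in 2 of 3, MAPK substrates and scaffolds in 3 of 3 and protein kinase A and AMP-activated kinase genes in 4 of 4.

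Map2k1, which encodes the kinase Mek1 at the middle step of a MAPK cascade, had the largest change, 2.79 ± 0.37 (adjusted p = 1.83e-10). It had 21, 59 and 118 at 30, 180 and 680 s at 2.6 mW and 4.2x Dazl, 15, 11 and 86 at 2.6 mW and 1x, 3, 5 and 79 at 1 mW and 4.2x, and 4, 3 and 44 at 1 mW and 1x. The 680 s value was the highest of each combination. Its 3 regions, at 64186117, 64186205 and 64186267 on chromosome 9, lie 356 to 506 nt from the 3′ end, and all 3 were highest at 680 s in each combination.

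Csnk1g3, a membrane-associated casein kinase 1, changed by 2.56 ± 0.21 (adjusted p = 1.06e-19). Its single region had 1, 2 and 31 at 2.6 mW and 4.2x Dazl, 1, 1 and 29 at 2.6 mW and 1x, 1, 1 and 23 at 1 mW and 4.2x, and 1, 1 and 8 at 1 mW and 1x. All of its 30 s values were thus at the lowest listed value, and the size of its change depends on that value and on the 3 added before the logarithm. Its p-value depends on both and on the variance borrowed from other genes. Cdk11b, a cyclin-dependent kinase involved in transcription and splicing, and Csnk2a2, the second catalytic subunit of casein kinase 2, each changed by 2.16 ± 0.33 (adjusted p = 2.03e-08 and 3.06e-08).

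Cdk11b had 7, 25 and 45 at 2.6 mW and 4.2x Dazl, 9, 2 and 44 at 2.6 mW and 1x, 1, 1 and 23 at 1 mW and 4.2x, and 1, 1 and 10 at 1 mW and 1x. Csnk2a2 had 16, 22 and 45, then 3, 6 and 41, then 3, 3 and 29, then 2, 2 and 17 in the same order. For both, each of the 4 values at 680 s lay above each of the 4 at 30 s, for Cdk11b by 10 against 9. This also held for other members, Csnk1g3 and Map2k1 among them, and its share over all genes was not counted. Map3k5, which encodes the stress-activated kinase Ask1, had 42, 49 and 69, then 5, 4 and 62, then 6, 8 and 43, then 2, 2 and 26, and changed by 2.15 ± 0.36 (adjusted p = 2.91e-07). Ppp1ca had 56, 55 and 77, then 6, 9 and 64, then 3, 3 and 52, then 2, 2 and 20, with a change of 2.18 ± 0.37 (adjusted p = 6.23e-07).

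At the other end, Map3k4 had a change of 0.49 ± 0.44 (adjusted p = 0.297) and was higher at 680 s in 1 of 4 combinations, tied in 2 and lower in 1. Stk11 had 0.75 ± 0.39 (adjusted p = 0.0785) and Map2k4 0.59 ± 0.34 (adjusted p = 0.108). Ppp3r1, the second highest member, had a change of 0.83 ± 0.47 (adjusted p = 0.0992) although its 680 s value was higher in 4 of 4 combinations. Pik3c2a (0.81 ± 0.41, adjusted p = 0.0651) did not pass either.

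On leaving out 1 library at a time, 32 of the 51 time calls held in all 12 refits. The count was 36 on leaving out 30 s at 1 mW and 1x Dazl, where 54.2% of all genes passed. It was 58 on leaving out 680 s at 2.6 mW and 4.2x, where 82.0% of all genes did. Cdk12 (0.96 ± 0.44, adjusted p = 0.0455) held in 3 of the 12 refits and Csnk2a1 (0.85 ± 0.40, adjusted p = 0.0475) in 4. A slope on log2 time in place of 3 separate times gave 23 of the 63, where 38.2% of all genes passed.

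**Figure D4:**
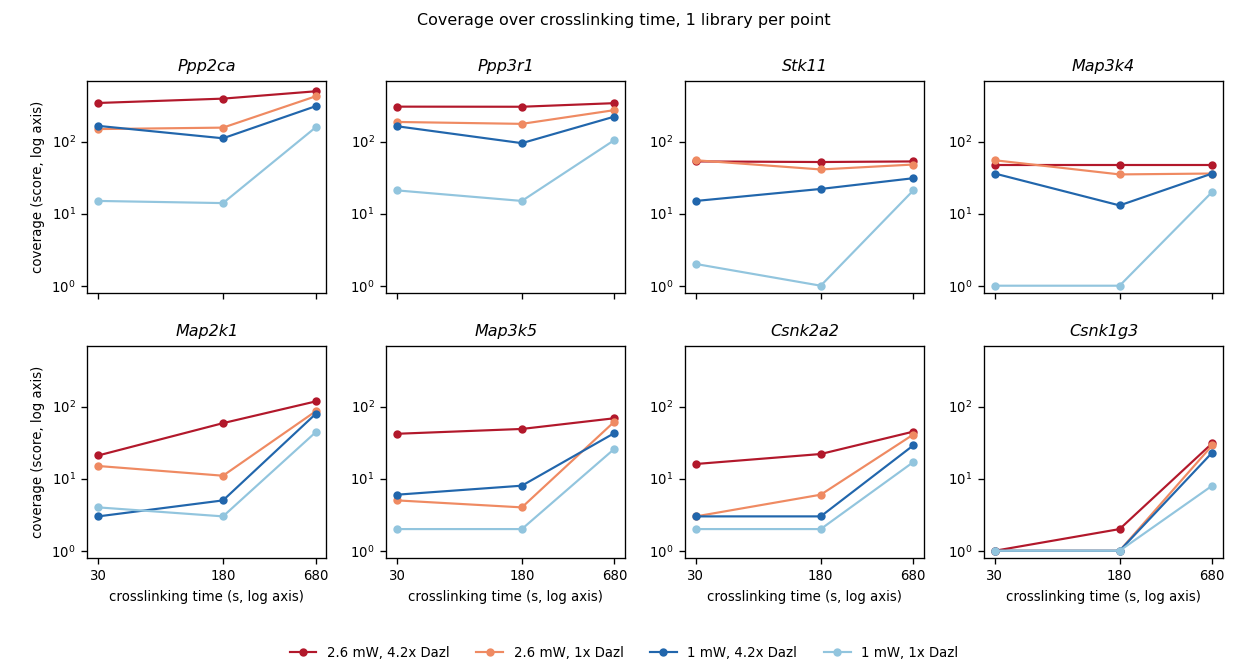
Coverage of 8 members (vertical, log axis) against crosslinking time in s (horizontal, log axis), 1 library per point, with a line for each combination of laser power and Dazl level. Map3k4 had 47 at each time at 2.6 mW and 4.2x Dazl, while Csnk1g3 had 1, 2 and 31 there.

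On scaled values, where the median change of all genes was -0.05, 5 of the 63 genes (7.94%) rose more with time than the median gene and 0 less, where 9.52% of all genes did so upward and 1.62% downward. The count is thus not above the background. The 5 were Csnk1g3 (1.53 ± 0.28, adjusted p = 0.0032), Map2k1 (1.63 ± 0.33, 0.00476), Csnk2a2 (1.13 ± 0.30, 0.0205), Cdk11b (1.20 ± 0.34, 0.0281) and Map3k5 (1.11 ± 0.33, 0.0385), each higher at 680 s in 4 of 4 combinations. Ppp1ca followed (1.15 ± 0.37, 0.0522). Among the lowest by the moderated t, of members with a mean of at least 10, were Cdk12 (-0.34 ± 0.13, 0.102), Ppp3r1 (-0.47 ± 0.19, 0.114), Pik3c2a (-0.42 ± 0.18, 0.147) and Map4k3 (-0.50 ± 0.25, 0.216), and in all 22 of the 63 (34.9%) had an unadjusted p under 0.05, as did 27.1% of all genes. Csnk1g3 and Map2k1 passed in each of 12 refits that left out 1 library, and the other 3 in 7 each. At 1 mW and 4.2x Dazl, leaving out the library of 30 s or that of 680 s gave 2 genes, all upward, where 4.21% and 6.31% of all genes departed upward. Leaving out 30 s at 2.6 mW and 1x, or either library of 680 s at 2.6 mW, gave 3, all upward, where 5.06% to 6.53% of all genes did. Leaving out 30 s at 1 mW and 1x gave 11, of which 10 were upward, where 13.0% of all genes departed upward and 2.03% downward. Without both early libraries of 1 mW and 1x, which stand mostly at the lowest value, 21 members departed, 15 upward and 6 downward (Cdk12, Csnka2ip, Map3k4, Pik3c2a and Ppp3r1 among them), where 18.8% and 10.5% of all genes did. Centring on the library median gave 13, 8 upward and 5 downward, where 10.2% and 19.5% of all genes did.

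**Figure D5:**
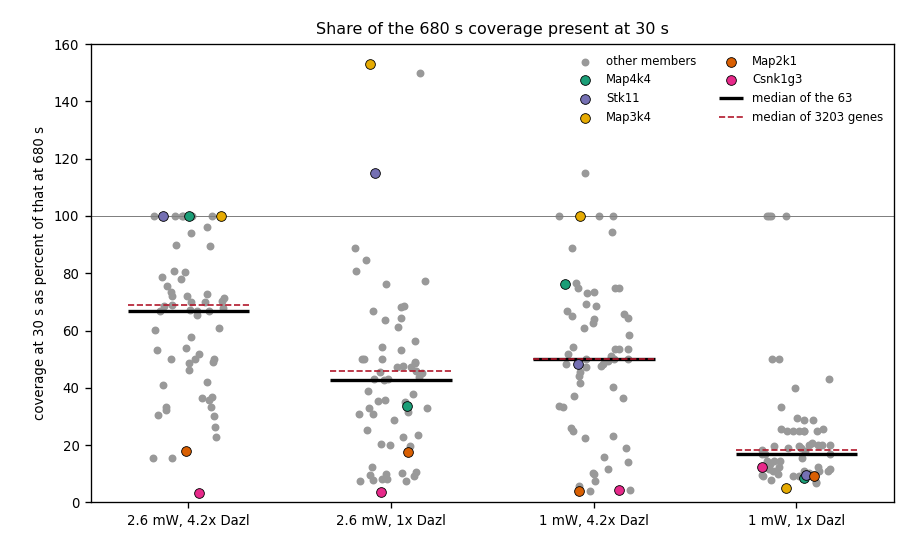
Coverage at 30 s as a percent of that at 680 s for each of the 63 genes (points) in the 4 combinations, with the median of the 63 (solid) and of 3203 genes (dashed). The medians of the 63 are 66.7%, 42.7%, 50.0% and 16.7% from left to right, and Csnk1g3 has the lowest share, 3.23%, in the leftmost.

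How much of the 680 s coverage was already present at 30 s differed widely within the families. The median share over the 63 genes was 66.7% at 2.6 mW and 4.2x Dazl, 42.7% at 2.6 mW and 1x, 50.0% at 1 mW and 4.2x, and 16.7% at 1 mW and 1x, against 68.9%, 45.9%, 50.0% and 18.2% over all genes. At 2.6 mW and 4.2x Dazl the share ran from 3.23% for Csnk1g3, 15.6% for Cdk11b and Dusp23 and 17.8% for Map2k1 to 100% for 10 genes. Over all genes, 25.4% stood at 100% or more in that combination, so the count of 10 among the 63 is not above the background. Those 10 were Map4k4, Prkaa1, Stk11, Map3k4, Ppp3ca, Map2k4, Map4k3, Ppp1r10, Mapk10 and Csnka2ip. They have between 1 and 3 regions each, and ties between these 2 libraries are common in all genes.

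The MAPK cascade kinases, which belong to several cascades, spanned most of this range. Among MAPK kinases, Map4k4, Map4k3, Map3k4 and Map2k4 had 100% at 30 s in that combination, Map3k7, which encodes the kinase Tak1, 78.8%, Mapk14 72.1%, Map3k5 60.9%, Mapk4 46.2% and Map2k1 17.8%. At 2.6 mW and 1x Dazl, Map3k4 had 153%, Map4k3 77.4%, Map2k4 37.9%, Map4k4 33.7%, Map2k1 17.4% and Map3k5 8.06%. Over the 50 members with a mean of at least 10, Spearman's rho of the shares was 0.604 between the combinations of 2.6 mW, 0.430 between those of 4.2x Dazl and 0.027 between 2.6 mW with 4.2x and 1 mW with 1x, as a description over genes that share libraries and their depth. Over all 2204 genes with such a mean the values were 0.517, 0.51 and 0.18. Remaining pairs of combinations had 0.175 to 0.409 over the members and 0.199 to 0.368 over those genes.

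Regions of 1 gene could differ as much as genes did. At 2.6 mW and 4.2x Dazl, the 8 regions of Ppp1cb had shares from 2.86% to 100%. The region at chr5:32478208-32478224, inside the gene and 15497 nt from its 3′ end, had 2, 2 and 70 at 30, 180 and 680 s there and 2, 1 and 63 at 2.6 mW and 1x, while the region at chr5:32491087-32491103 had 28, 28 and 28, and 12, 12 and 19. Stk4 had a region at chr2:164100476-164100492 with 2, 2 and 36, and 29 nt further on one at chr2:164100522-164100538 with 34, 26 and 34. Mapk14 had a range of 4.35% to 100% over 5 regions and Prkar1a 12.5% to 100% over 12, of which 7 were at 100%. None of the 4 Ppp2ca regions reached 100%, with shares of 16.2% to 82.8%.

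Genes that act beside the members in the same pathways were taken from 4 lists of non-members. Over all 3203 genes, 82.4%, 93.4% and 73% were higher with Dazl level, laser power and time, and the counts of each list stand against these shares. Of 38 genes of the Ras and MAPK pathway 14 had a region, and 14, 13 and 13 of them were higher with Dazl level, laser power and time. The highest was the small GTPase gene Rras2, with a mean of 392.67 in 17 regions and a Dazl change of 1.44 ± 0.41 (adjusted p = 0.00161), followed by the transcription factor gene Jund with 303.83 in 2 regions. Nras, a GTPase that activates Raf kinases, had 113.67. The adaptor gene Grb2 did not pass with laser power (0.34, adjusted p = 0.0787), nor Fosl2 with time (0.89, adjusted p = 0.061).

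Of 32 genes of the phosphoinositide 3-kinase to mTOR pathway 8 had a region, and 7, 8 and 8 were higher in the 3 comparisons. Rheb, the GTPase that switches mTOR on, had the highest mean, 83.92, and a Dazl change of 1.56 ± 0.34 (adjusted p = 0.000124), and Eif4ebp2 did not pass for Dazl level (adjusted p = 0.166). Of 27 protein kinase A anchoring and cyclic AMP genes 6 had a region, with 6, 6 and 5 higher. Akap13, an anchoring protein, did not pass with time as deposited (0.33, adjusted p = 0.418) and departed downward after scaling (-0.91, adjusted p = 0.0115). Of 21 Hippo pathway genes 10 had a region, with 10, 10 and 8 higher. Amotl2, which binds the coactivator Yap1, had 294.67 in 14 regions, the secreted target genes Ccn2 and Ccn1 222.92 and 60.83, and Yap1 itself 5.42. Ccn1 departed upward with time after scaling (0.77, adjusted p = 0.0231), and no other gene of the 4 lists departed in any of the 3 comparisons apart from Akap13. With time, 9.52% of all genes departed upward and 1.62% downward.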

How the data were processed

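KIN-CLIP libraries of Dazl in GC-1 spg cells were used, 1 per combination of 3 times, 2 laser powers and 2 Dazl levels. The values are a score per interval, called normalized coverage in the deposited files. Per the submitters' processing notes FastQC, Bowtie2 and the build mm10 were used. How reads were counted, normalized and chosen as sites is not stated, so read depth is unknown and no counting interval is given. Intervals of the 12 files at most 10 nt apart were joined, width times score was summed per region, and regions were given to the 1 RefSeq gene, or the 1 protein-coding gene, that they overlap, without regard to strand. Members, lists and tests were chosen with earlier results of these data known.

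Changes were fitted over 3203 genes with limma 3.58.1 (R 4.3.3, Python 3.11.15) on log2(value + 3), with additive terms for time, laser power and Dazl level, eBayes with trend and robust, and Benjamini-Hochberg adjusted p under 0.05. ± is the standard error (SE). Departures from the median gene came from the same model on values divided by median-ratio size factors, where the median of borrowed degrees of freedom was 11.46. On simulated data for laser power, with 200 of 3203 genes changed, 69.9% of 2-fold and 94.4% of 4-fold changes were recovered and 0.27% of unchanged genes called. The simulated noise was independent between libraries, with no linked times and no time or Dazl effects of single genes. These rates therefore need not hold for the deposited values. Named genes are the 15 highest members, the 5 most positive and 5 most negative departures per comparison by the moderated t among members with a mean of at least 10, the highest of each role, paralogs, and every departure past the threshold. Other members are named where a count of failures or ties is spelled out, after their values were seen. Alternatives varied the pseudocount, joining distance, gene assignment, low-value filter, variance model, scaling, coding of time and the libraries included. Results for some genes of these lists are not reported here, though they enter the counts.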

Additional observations from a re-analysis of the deposited data

How the results depend on the processing

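The number of members higher with Dazl level stayed at 47 to 57 and with laser power at 49 to 62 over all alternatives, against 56 and 61 as reported. The filter at a mean of at least 10 left only 50 members. Of these 50, 47, 49 and 42 were higher with Dazl level, laser power and time, where 89.8%, 97.9% and 77.9% of all genes were. Leaving out 1 library at a time gave 49 to 57 and 57 to 62 of the 63, where 69.5% to 82.0% and 87.2% to 94.0% of all genes were higher. For time the count was 42 to 56 under the alternatives that keep all libraries and separate times, 45 without the 30 s and 180 s exposures of 1 mW and 1x Dazl, 36 to 58 on leaving out 1 library, and 23 with a slope on log2 time, against 51. Departures from the median depended on the scaling. Centring on the library median gave 7 with Dazl level, 13 with laser power and 13 with time, against 0, 0 and 5. With time the count was 2 among genes with a mean of at least 10 (Map2k1 upward and Ppp3r1 downward), 3 with a slope on log2 time, 21 without the early exposures of 1 mW and 1x Dazl, and 2 to 11 on leaving out 1 library. Leaving out 1 library gave 0 to 3 departures with laser power, 0 with Dazl level and 0 to 22 members with an interaction. Signs turned for Stk35 with Dazl level (0.0715 without the early exposures and 0.0538 centred, scaled) and, centred, for Cdk12 (0.2534), Ppp1cb (0.2403) and Ptpn14 (0.0212) with laser power. The Csnk1g2 change with Dazl level as deposited lay between -0.144 and 0.2213 on leaving out 1 library, negative in 4 of 12 cases. The causes were not tested. No paired analysis was possible because each condition has 1 library, so there are no replicate numbers to block on. The libraries matched on the other 2 factors are compared through the additive terms. Read depth is unknown, so what it limits cannot be stated.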
